A study of Homo sapiens with 6 samples.

Results

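The retained introns up to 500 bases long are 436 of the 869 retained-intron events that the authors deposited for LNCaP, a human prostate cancer line that responds to androgens. They were chosen by length alone, as the distance between the exon on the left of the intron and the exon on its right, and no read count entered the choice. They lie in 320 genes and, because some are nested or overlap, form 387 separate loci, while the other 433 events are longer introns in 301 genes. Cells that stably carried Flag-KDM4B, a tagged histone lysine demethylase, gave 3 libraries (replicates 1, 2 and 4). Cells that stably carried the plenti6 control plasmid gave 3 libraries (replicates 1, 2 and 3), called vector libraries here. All cells were kept for 3 days before harvest in RPMI medium with 10% serum (CFBS in the labels), and total RNA was sequenced. The labels do not say whether a line is 1 clone or a pool, nor that the replicates were separate cultures, so p-values reflect only how far these samples spread, and that spread may be technical.

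Splicing removes introns from a transcript, and an intron is called retained when it stays in some of the processed RNA. Short introns are recognised across the intron itself: the U1 particle binds at its start, the branch point protein SF1 and the U2AF dimer bind near its end, and both ends lie close together. Transcripts that keep an intron often stay in the nucleus or are degraded, and genes of RNA-binding proteins are known for retained introns that act in their own control. KDM4B removes methyl groups from histone H3, and androgen signalling drives genes such as KLK2 and KLK3 in prostate cells.

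Each event has 1 count per library, which joins the reads of the spliced and the unspliced form, and the forms could not be separated. The quantity described here is therefore the number of event reads, or the number of event reads per 1000 reads counted over all skipped exon (SE) events of the same gene. It is a level of the region relative to its gene and not the share of transcripts that keep the intron. Positions are those of the authors' table, counted from 1. Their genome build is not settled: the submitters' processing notes name GRCh38, yet 38 of 436 introns (8.72%) lay inside their own gene on GRCh38. Intron sequences are therefore not given.

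The 3 KDM4B-labelled libraries had 26.3, 27.2 and 25.8 FPKM of KDM4B, against 24.7, 25.2 and 25.3 FPKM in vector libraries, so the label is only weakly visible in the KDM4B transcript. LNCaP markers were present in all 6 libraries (the prostate surface antigen FOLH1 between 290 and 364 FPKM), and the leukocyte and endothelial markers PTPRC, CD3E and PECAM1 were at 0.08 FPKM or below. SE counts, which share reads between events, summed to 14212396 to 14787321 in KDM4B-labelled libraries and to 16451082 to 17021204 in vector libraries. Ribosomal RNA took 8.14% to 10.5% of the FPKM sum in KDM4B-labelled libraries and 0.144% to 0.473% in vector libraries, and its part in the results was not tested. Only the titles of KDM4B-labelled libraries end in a shared code, and if it marks a batch, that batch and the group cannot be told apart.

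Most of these introns were far shorter than the limit. The median length was 226 bases, with 10% at 86 bases or less and 10% above 412.5 bases, and the shortest had 40 bases. The commonest lengths were 75 to 99 bases, with 66 introns, and a second peak lay between 225 and 274 bases, with 39 and 37 introns per 25 bases. Chromosome 1 held 60 of the introns (13.8%), chromosome 17 held 44 (10.1%) and the gene-dense chromosome 19 held 43 (9.86%, against 5.31% of the longer introns). Lengths divisible by 3, which would keep a reading frame open if no stop codon were met, made up 31.4% of the short and 31.9% of the longer introns. The spliced form was listed only under the authors' own transcript names, with no RefSeq transcript, for 113 short introns (25.9%) and 157 longer ones (36.3%).

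Short introns also gave few reads. The median event had 86.2 reads per library, against 322.5 for longer introns, although their genes had a similar median level (13.02 and 13.29 FPKM). Per FPKM of the host gene, the median was 5.85 reads for introns up to 100 bases, 6.19 for 101 to 200 bases, 6.53 for 201 to 300 bases and 9.31 for 301 to 500 bases, and it reached 35.7 for introns over 1000 bases. Reads per event thus changed little with length up to 300 bases and more beyond it, which is a description across events that share genes and libraries.

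**Figure D1:**
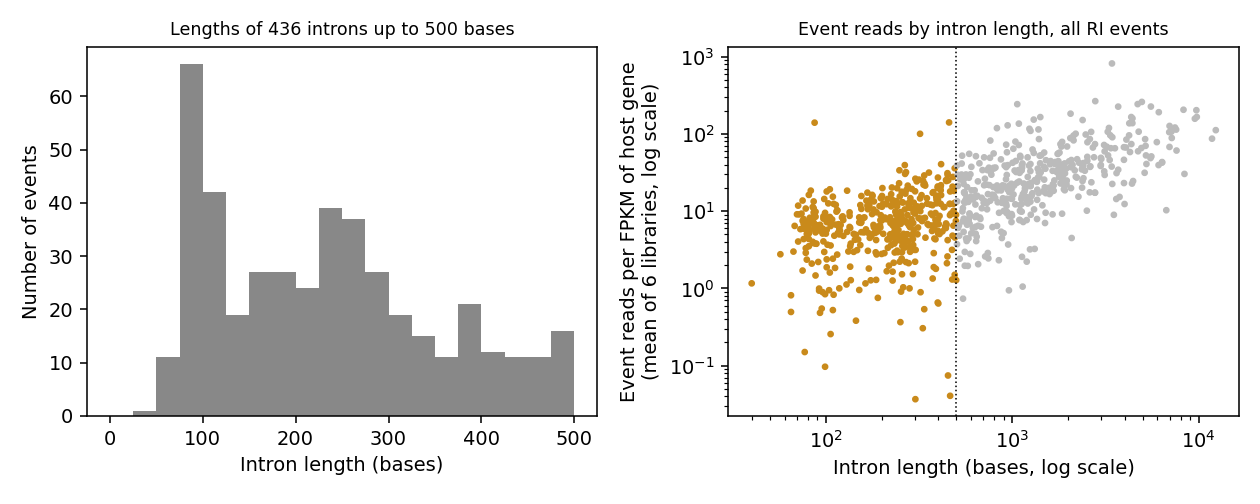
Left: number of retained introns up to 500 bases by length in steps of 25 bases. Right: event reads per FPKM of the host gene (mean of 6 libraries, log scale) against intron length (log scale) for all retained-intron events, with those up to 500 bases in orange; the orange points have a median of 6.65 and the longer introns in grey a median of 25.01.

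In total, the short introns held 81749, 84935 and 81140 reads in KDM4B-labelled libraries, against 114390, 117576 and 110930 reads in vector libraries. Per 1000 SE reads this was 5.74, 5.74 and 5.71 in KDM4B-labelled libraries, against 6.72, 7.01 and 6.74 in vector libraries. The 2 groups do not overlap, but KLK2 and KLK3, the kallikrein genes of the androgen response, held 6.81% to 8.19% of the short-intron reads in KDM4B-labelled libraries and 21.9% to 23.4% in vector libraries. Without their 4 introns the values were 5.27, 5.35 and 5.26 in KDM4B-labelled libraries and 5.25, 5.36 and 5.27 in vector libraries, and the groups overlapped. In bulk RNA, fewer cells that express a gene and less RNA per cell cannot be told apart.

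Set against its own gene, a small part of the short introns differed between the groups, more often upward. Of 371 introns in 269 genes that could be tested, 31 (in 22 genes) were higher and 13 (in 12 genes) were lower in KDM4B-labelled libraries, by edgeR's quasi-likelihood test with an adjusted p below 0.05. That is 11.9% of them, against a background of 16.0% over all 750 tested retained-intron events; for higher events the background was 9.73% and for lower events 6.27%, while the short introns gave 8.36% and 3.50%. The median log2 change was 0.04 for the short introns and 0.01 over all tested events, so the short introns had no general shift. The ratios of the 2 groups did not overlap for 92 of the 371 introns, against a background of 29.3%. The number lower fell to 8 without KDM4B replicate 2, and to 8 with DESeq2. The number higher was 22 to 30 with any library left out, and 21 with DESeq2. With the gene's most-read SE event as the reference it was 18, and with the SE events outside the intron and its flanks 18 (310 introns tested). Only 20 of the 31 higher introns could be tested against those outside events, and 17 of these 20 stayed higher. The called introns of ATP5D, KLK2, KLK3, DDIT3 and RANGRF could not, for lack of SE reads outside their region.

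Higher calls were more frequent among introns with more reads, and lower calls were not. When the tested introns were split into 3 classes from the fewest to the most reads, 5 of 124, 8 of 123 and 18 of 124 were higher, while 5, 4 and 4 were lower. Small changes could be missed: the standard error had a median of 0.17 on the log2 scale for short introns and 0.11 for longer ones. By length, 6 were higher and 2 lower of 69 introns up to 100 bases, 6 and 2 of 97 introns of 101 to 200 bases, 11 and 4 of 111 introns of 201 to 300 bases, and 8 and 5 of 94 introns of 301 to 500 bases. Introns with no RefSeq transcript for the spliced form passed in 19.6% of 102 tests, and those with one in 8.92% of 269. On the plus strand 19 were higher and 4 lower of 194, and on the minus strand 12 and 9 of 177. The remaining 65 introns were not tested: 32 had no SE event in their gene, 30 had under 10 reads in some library and 3 had under 10 SE reads.

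**Figure D2:**
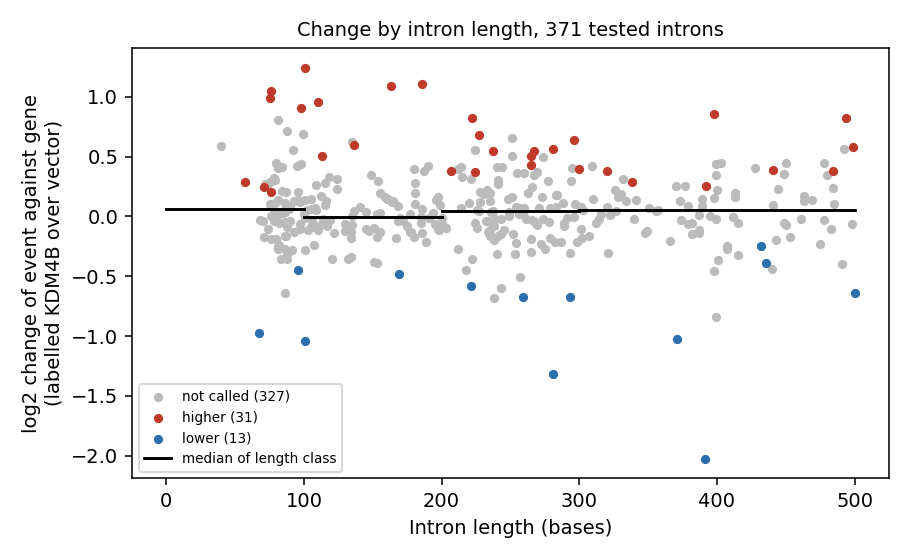
Log2 change of event reads relative to the gene's SE reads (KDM4B-labelled libraries over vector) against intron length in bases, 1 point for each of 371 tested introns; red points are the 31 higher, blue points the 13 lower, grey points were not called. Black lines are the medians of 4 length classes, which lie between -0.01 and 0.06.

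The change of an event relative to its gene can come with a change of the event reads, of the gene or of both. Of the 22 genes with a higher intron, 20 had fallen in FPKM and 0 had risen, by limma on log2(FPKM + 1), against a background of 60.3% lower and 13.4% higher (73.7% in all) over 12148 genes. After scaling the libraries to a common median of ratios, which brought the median change over all genes to -0.01, in place of -0.22, 17 of the 22 had fallen and 2 had risen (background 35.5% and 32.4%, together 67.9%). The ratio and the gene's level share a part, so a gene that falls can raise the ratio. The event reads themselves were higher for 14 of the 31 introns, lower for 9 and not called for 8, by edgeR with TMM scaling (background 17.8% higher and 19.8% lower, 37.6% in all). With the host gene's FPKM as the reference in place of SE reads, an alternative chosen after seeing the data, 26 of the 31 were higher.

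**Figure D3:**
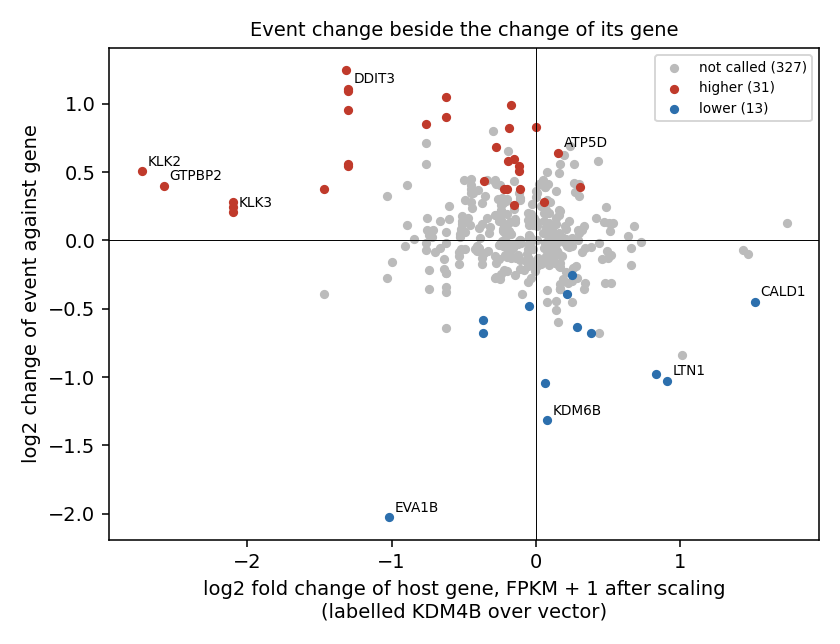
Log2 change of the event against its gene (vertical axis) and log2 change of the host gene on the FPKM + 1 scale after scaling of the libraries (horizontal axis), both as KDM4B-labelled libraries over vector, 1 point for each of 371 introns. Red points (31 higher) lie mostly left of 0 and blue points (13 lower) on both sides; the vertical value has the gene in its denominator, so the axes are not independent.

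Higher both in reads and against their gene were, among others, introns of ATP5D, COASY, ATXN2L, HPS4, ELMOD3, NSUN5 and MAMDC4, and, chosen after their values were seen, of APH1A, DALRD3 and ARHGAP39. ATP5D encodes the delta subunit of the mitochondrial ATP synthase and had by far the most reads of these. Its intron of 296 bases (chr19:1244440-1244735, plus strand) had 3544, 3693 and 3316 reads in KDM4B-labelled libraries, against 2460, 2676 and 2430 reads in vector libraries. The gene's SE reads were 5994, 6211 and 5547 in KDM4B-labelled libraries, against 6788, 6480 and 6572 in vector libraries. The groups were wide apart in the first and went the other way in the second. Per 1000 SE reads the intron had 594.5 ± 3.27 in KDM4B-labelled libraries and 381.7 ± 27.3 in vector libraries (SD, n = 3 each), a log2 change of 0.64 (SE 0.06, adjusted p = 4.91e-07). The ATP5D gene itself had 229 ± 17.7 FPKM in KDM4B-labelled libraries and 240.5 ± 4.85 FPKM in vector libraries, with an adjusted p of 0.193.

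COASY, the enzyme of the last steps of coenzyme A synthesis, had an intron of 136 bases (chr17:40714238-40714373, plus strand) with 147, 160 and 159 reads in KDM4B-labelled libraries, against 130, 129 and 125 reads in vector libraries. The event was higher by 0.60 against its gene (SE 0.12, adjusted p = 0.000806). The groups do not overlap, and the gene fell in FPKM. A longer intron of 392 bases that contains it was higher by 0.26, but with each of the 6 libraries left out in turn its adjusted p was between 0.0643 and 0.112. ATXN2L, a stress granule protein, had 372, 375 and 375 reads in an intron of 237 bases (chr16:28847812-28848048, plus strand) in KDM4B-labelled libraries, against 290, 379 and 334 reads in vector libraries. Here the raw reads overlap, while the values per 1000 SE reads were 240.5, 218.5 and 247.2 in KDM4B-labelled libraries, against 130.4, 189.1 and 167.8 in vector libraries, and do not. The log2 change against the gene was 0.54 (SE 0.12, adjusted p = 0.00232), and an overlapping intron of 265 bases changed by 0.51.

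HPS4, part of the exchange factor that activates RAB proteins of lysosome-related organelles, had an intron of 499 bases (chr22:26861518-26862016, minus strand) with 127, 128 and 107 reads in KDM4B-labelled libraries, against 108, 95 and 102 reads in vector libraries. It was higher by 0.58 against its gene (adjusted p = 0.00459). ELMOD3, a GTPase-activating protein for ARL proteins, had 90, 81 and 74 reads in an intron of 494 bases (chr2:85617389-85617882, plus strand) in KDM4B-labelled libraries, against 61, 59 and 66 reads in vector libraries. It was higher by 0.82 (SE 0.20, adjusted p = 0.00674). Both lost the call when the gene's most-read SE event alone was the reference, with an adjusted p of 0.0861 for HPS4 and 0.271 for ELMOD3.

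NSUN5, a ribosomal RNA methyltransferase, had 46, 49 and 37 reads in an intron of 75 bases (chr7:72717522-72717596, minus strand) in KDM4B-labelled libraries, against 27, 31 and 30 reads in vector libraries. The log2 change was 0.99 (SE 0.25, adjusted p = 0.00728). A second NSUN5 intron, of 70 bases with the same higher position (72717596), had more reads and a log2 change of -0.04 (adjusted p = 0.913). Thus 2 introns that differ by 5 bases gave different values. NSUN5 has near-identical copies nearby, and reads could be split among them, so its values are uncertain. MAMDC4, whose rat counterpart is a glycoprotein of apical endosomes, had 9 tested short introns. Its intron of 98 bases (chr9:139736681-139736778, plus strand) had 63, 61 and 77 reads in KDM4B-labelled libraries, against 45, 64 and 34 reads in vector libraries. These reads overlap between the groups, but per 1000 SE reads the values were 16.1, 14.8 and 19.95 in KDM4B-labelled libraries, against 8.2, 12.4 and 6.7 in vector libraries, and do not (log2 change 0.90, adjusted p = 0.00203). Only this intron and one of 76 bases (chr9:139738732-139738807, log2 change 1.05) were called among the 9, and the 7 others, all further along the gene, had log2 changes between -0.64 and 0.06. The MAMDC4 gene fell to 2.64 FPKM in KDM4B-labelled libraries, against 5.34 FPKM in vector libraries.

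APH1A, a subunit of gamma-secretase, changed by 0.28 in an intron of 338 bases (adjusted p = 0.00951, and 0.0694 without vector replicate 3). With the gene's FPKM as the reference the APH1A value was 0.16 and did not pass (adjusted p = 0.0951). DALRD3, which takes part in tRNA methylation, changed by 0.43 in an intron of 265 bases (adjusted p = 0.0039), but by 0.26 with the most-read SE event as the reference (adjusted p = 0.255). ARHGAP39, a GTPase-activating protein, had a change of 0.38 (adjusted p = 0.0456) that lost its call without KDM4B replicate 1 (0.0761), KDM4B replicate 4 (0.141), vector replicate 1 (0.10) or vector replicate 3 (0.242). It also missed the threshold with DESeq2 (0.163), the most-read SE event (0.196) and the SE events outside the intron (0.0793).

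In 6 further genes, 9 of the introns had fewer event reads, yet were higher relative to the gene's SE reads: DDIT3, DERL3, GTPBP2, KLK2, KLK3 and SYTL1. The SYTL1 value rests on the reference: it was 0.37 with the summed SE reads (adjusted p = 0.0387) and -0.17 with the most-read SE event (adjusted p = 0.540). Its call was also lost with DESeq2 (0.134) and without KDM4B replicate 1 (0.101), KDM4B replicate 2 (0.195), vector replicate 1 (0.160) or vector replicate 2 (0.073). KLK2 and KLK3 encode secreted kallikreins, KLK3 being prostate-specific antigen, and both are androgen-regulated genes. KLK2 had 363, 317 and 369 reads in an intron of 113 bases (chr19:51380015-51380127, plus strand) in KDM4B-labelled libraries, against 1813, 1985 and 1970 reads in vector libraries. Its SE reads fell to 3878, 3401 and 3913 in KDM4B-labelled libraries, against 28494, 29180 and 29609 in vector libraries. Per 1000 SE reads the intron had 93.7 ± 0.553 in KDM4B-labelled libraries and 66.1 ± 2.24 in vector libraries (SD, n = 3 each), a log2 change of 0.50 (SE 0.07, adjusted p = 1.66e-05), although the event reads themselves changed by -2.17. The gene stood at 20.8 ± 1.58 FPKM in KDM4B-labelled libraries and 168 ± 3.77 FPKM in vector libraries.

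KLK3 had 3 of the short introns, which share a start at chr19:51361343 and end at 51361399, 51361413 and 51361418, so they are 57, 71 and 76 bases long and share most of their reads. The intron of 57 bases had 1598, 1423 and 1493 reads in KDM4B-labelled libraries, against 5678, 6387 and 5454 reads in vector libraries. Per 1000 SE reads this was 98.3, 106.0 and 91.7 in KDM4B-labelled libraries, against 77.5, 88.1 and 77.3 in vector libraries, a narrow gap. The log2 changes against the gene were 0.28, 0.24 and 0.21 from the shortest to the longest (adjusted p = 0.00232, 0.00331 and 0.0116). The intron of 76 bases lost its call without KDM4B replicate 2 (0.0645), vector replicate 1 (0.0552) or vector replicate 3 (0.0844), and with DESeq2 none of the 3 passed (adjusted p = 0.0529, 0.0617 and 0.146).

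DDIT3, the stress-induced transcription factor also called CHOP, had 5 nested introns on the minus strand, with lengths from 110 to 281 bases. They share the higher position, chr12:57911488, which is the intron's start on that strand, and differ in the lower position. All 5 were higher against the gene, by 0.54 to 1.11, and they share reads. The intron of 186 bases (lower position 57911303) had 84, 78 and 77 reads in KDM4B-labelled libraries, against 147, 83 and 98 reads in vector libraries. The SE reads of DDIT3 were 1446, 1370 and 1523 in KDM4B-labelled libraries, against 5094, 4085 and 3625 in vector libraries. Per 1000 SE reads the intron had 55.2 ± 4.06 in KDM4B-labelled libraries and 25.4 ± 4.50 in vector libraries (SD, n = 3 each; adjusted p = 1.78e-05). The event reads of this intron were not called (log2 change -0.17, adjusted p = 0.533), while DDIT3 fell to 37.1 ± 2.98 FPKM in KDM4B-labelled libraries, against 109 ± 13.7 FPKM in vector libraries.

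GTPBP2, a ribosome rescue factor, was chosen after its values were seen. Its intron of 300 bases (chr6:43592800-43593099, minus strand) had 141, 121 and 153 reads in KDM4B-labelled libraries, against 883, 808 and 795 reads in vector libraries. Against the gene it was higher by 0.40 (adjusted p = 0.0170), and the call was lost without KDM4B replicate 2 (0.0576), KDM4B replicate 4 (0.0725) or vector replicate 1 (0.0536). The value was 0.24 with the gene's FPKM as the reference (adjusted p = 0.097) and 0.42 with the SE events outside the intron (0.0625). The DERL3 intron of 101 bases, in a gene of endoplasmic reticulum-associated degradation, had the largest rise of all called short introns (1.24, adjusted p = 0.0406) on only 13, 15 and 21 reads in KDM4B-labelled libraries, against 32, 41 and 28 reads in vector libraries. It was too thin for the rule on reads, and lost its call without KDM4B replicate 2 (0.0706), KDM4B replicate 4 (0.243), vector replicate 1 (0.064) or vector replicate 3 (0.133).

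For 3 more named genes the event reads were not called while the gene was lower in FPKM (for USP21 only before scaling). USP21, a deubiquitinase, had 120, 115 and 110 reads in an intron of 222 bases (chr1:161134403-161134624, plus strand) in KDM4B-labelled libraries, against 108, 103 and 114 reads in vector libraries. Its SE reads were 801, 743 and 760 in KDM4B-labelled libraries, against 1293, 1386 and 1178 in vector libraries, and the ratio was up by 0.83 (adjusted p = 0.000348). The USP21 ratio depended on the reference: the log2 change was 0.24 with the gene's FPKM (adjusted p = 0.318) and -0.04 with its most-read SE event (adjusted p = 0.930). OGG1, a glycosylase that removes oxidised guanine from DNA, had 89, 69 and 95 reads in an intron of 227 bases (chr3:9798501-9798727, plus strand) in KDM4B-labelled libraries, against 83, 76 and 73 reads in vector libraries, with a ratio change of 0.68 (adjusted p = 0.00533). RANGRF, which binds the nuclear transport GTPase Ran, had 112, 117 and 105 reads in an intron of 398 bases (chr17:8192733-8193130, plus strand) in KDM4B-labelled libraries, against 147, 174 and 164 reads in vector libraries. Its ratio changed by 0.85 (adjusted p = 0.0115); leaving out KDM4B replicate 2 (0.0536) or vector replicate 1 (0.0564) ended that call. With the most-read SE event the RANGRF value was 0.70 and did not pass (adjusted p = 0.125), and with the gene's FPKM it was 0.50 (adjusted p = 0.0163).

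**Figure D4:**
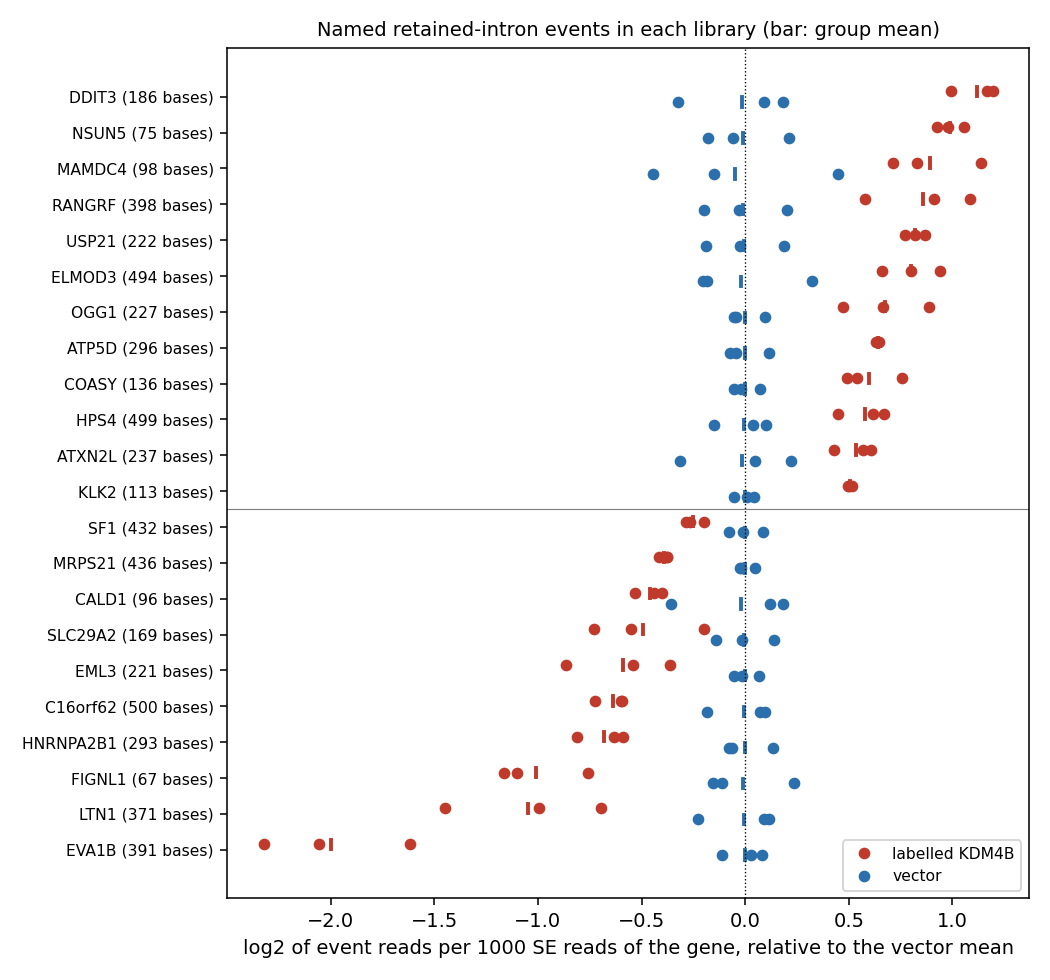
Log2 of event reads per 1000 SE reads of the gene, relative to the vector mean, for the 12 largest rises (above the line) and the 10 falls (below it) that met the naming rule; red points are the 3 KDM4B-labelled libraries, blue points the 3 vector libraries and bars the group means. The groups do not overlap for any of these introns, since the rule asked for that; the gap is narrow for CALD1, SLC29A2 and SF1.

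Lower against their gene were 13 introns. Of their 12 genes, 4 had risen and 5 had fallen in FPKM (7 and 2 after scaling), beside a background of 13.4% and 60.3% (32.4% and 35.5% after scaling). Of the 13 event counts 1 was higher, 3 were lower and 9 were not called, beside a background of 17.8% higher and 19.8% lower. EVA1B, a membrane protein of the EVA1 family, had the largest fall. Its intron of 391 bases (chr1:36788669-36789059, minus strand) had 33, 37 and 41 reads in KDM4B-labelled libraries, against 286, 316 and 275 reads in vector libraries. The gene's only SE event had 35, 64 and 59 reads in KDM4B-labelled libraries, against 97, 118 and 90 reads in vector libraries. The event reads thus fell further than the SE reads. The exon on the right of this intron spans 9991 bases, and the spliced form has no RefSeq transcript. Whether reads of that exon enter the event count was not tested. The log2 change was -2.03 against SE reads (SE 0.25, adjusted p = 5.83e-06) and -1.70 against the gene's FPKM. KDM6B, a histone H3 demethylase chosen here after its values were seen, had 11, 19 and 14 reads in an intron of 281 bases (chr17:7758209-7758489, plus strand) in KDM4B-labelled libraries, against 44, 39 and 33 reads in vector libraries. It was lower by 1.32 on the log2 scale against its gene (adjusted p = 0.000776).

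HNRNPA2B1, an RNA-binding protein that regulates splicing, was the clearest fall in an abundant gene. Its intron of 293 bases (chr7:26230749-26231041, minus strand) had 273, 294 and 239 reads in KDM4B-labelled libraries, against 386, 391 and 348 reads in vector libraries. Per 1000 SE reads it had 5.7, 5.9 and 5.1 in KDM4B-labelled libraries, against 8.5, 9.8 and 8.4 in vector libraries. The log2 change was -0.67 (SE 0.08, adjusted p = 3.77e-06), and it lay between -0.71 and -0.64 with the other references. The event reads alone were not called (log2 change -0.20, adjusted p = 0.126), and the gene had 221 ± 8.32 FPKM in KDM4B-labelled libraries and 199 ± 11.2 FPKM in vector libraries. SF1, the branch point protein named above, had 865, 876 and 836 reads in an intron of 432 bases (chr11:64532991-64533422, minus strand) in KDM4B-labelled libraries, against 1016, 1028 and 1122 reads in vector libraries. Its log2 change of -0.25 (adjusted p = 0.0285) lost the call without KDM4B replicate 1 (0.101), KDM4B replicate 2 (0.0789), vector replicate 1 (0.0640) or vector replicate 3 (0.157), and with DESeq2 (0.102).

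LTN1, the ubiquitin ligase of ribosome-associated quality control, and FIGNL1, an ATPase of DNA repair, had genes that rose while the reads of the intron were not called. LTN1 had 41, 28 and 36 reads in an intron of 371 bases (chr21:30333029-30333399, minus strand) in KDM4B-labelled libraries, against 47, 40 and 50 reads in vector libraries, with 9.27 FPKM of the gene in KDM4B-labelled libraries and 5.29 FPKM in vector libraries. FIGNL1 had 33, 44 and 30 reads in an intron of 67 bases (chr7:50518382-50518448, minus strand) in KDM4B-labelled libraries, against 49, 47 and 42 reads in vector libraries. Against their genes the log2 changes were -1.03 for LTN1 and -0.98 for FIGNL1 (adjusted p = 0.00137 for both). With the most-read SE event as the reference the LTN1 value was 0.03 (adjusted p = 0.972), so it rests on the choice of reference.

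CALD1, which encodes caldesmon of the actin cytoskeleton, was the only lower intron whose reads rose. Its intron of 96 bases (chr7:134642864-134642959, plus strand) had 144, 136 and 139 reads in KDM4B-labelled libraries, against 89, 69 and 89 reads in vector libraries. The gene's SE reads rose more, to 5826, 6022 and 5764 in KDM4B-labelled libraries, against 2400, 2703 and 2510 in vector libraries, so the ratio changed by -0.45 (adjusted p = 0.0318). That call was lost without KDM4B replicate 2 (0.113), vector replicate 1 (0.192) or vector replicate 3 (0.144), and with DESeq2 (0.116). MRPS21, a protein of the small mitochondrial ribosomal subunit, had 777, 793 and 783 reads in an intron of 436 bases (chr1:150266319-150266754, plus strand) in KDM4B-labelled libraries, against 1047, 1012 and 990 reads in vector libraries. Its ratio changed by -0.39 (SE 0.09, adjusted p = 0.00239) and kept its call with each library left out in turn.

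EML3, a microtubule-binding protein, was lower by 0.58 on the log2 scale in an intron of 221 bases (chr11:62376605-62376825, minus strand; adjusted p = 0.00717, and 0.0663 without KDM4B replicate 2), but the value was 0.02 with the gene's FPKM as the reference. The nucleoside transporter SLC29A2 was lower by 0.48 in an intron of 169 bases (adjusted p = 0.0387). That call was lost without KDM4B replicate 1 (0.101), KDM4B replicate 4 (0.159), vector replicate 2 (0.146) or vector replicate 3 (0.0747). It was also lost with DESeq2 (0.137) and with the most-read SE event (0.142). C16orf62, a subunit of the endosomal retriever complex, was lower by 0.64 in an intron of 500 bases that had 21 to 36 reads (adjusted p = 0.0458). Among the 6 left-out libraries the call held only without vector replicate 2, and the other 5 gave 0.0851 to 0.140. It also missed the threshold with DESeq2 (0.123) and the most-read SE event (0.0648).

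Among the most-read short introns, that of RPL28 stayed within the spread of its replicates at high depth. This ribosomal protein gene had 4335, 4654 and 4270 reads in an intron of 194 bases (chr19:55899417-55899610, plus strand) in KDM4B-labelled libraries, against 4613, 4480 and 4484 reads in vector libraries. The groups overlap, and the log2 change against the gene was 0.03 (SE 0.06, adjusted p = 0.805). The other 4 most-read introns were those of KLK3 and ATP5D given above.

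Host genes were grouped by function from their symbols; the counts stand beside 11.9% called among all tested short introns and a background of 16.0%, and no difference of a group from these shares was tested. Of 10 tested introns in genes on the list of splicing or RNA processing, 1 was higher (NSUN5) and 1 lower (HNRNPA2B1). Their median log2 change was -0.18, against 0.04 over all tested short introns. The list does not hold SF1, whose short intron was also called lower (log2 change -0.25), so it does not count every splicing gene. SRSF1, a splicing factor of the SR family whose intron has 200 bases, had a change of -0.06 (adjusted p = 0.713), and the 2 short introns of the kinase gene PRPF4B had values of -0.51 and -0.44 that did not pass (adjusted p = 0.151 and 0.0812). All 4 introns of the androgen-regulated genes, KLK2 and KLK3, were higher, but these form only 2 loci. The KLK3 introns overlap and share most of their reads, and none of them passed with DESeq2. Of 9 tested introns in zinc finger genes 0 were called, with a median of -0.08, and likewise 0 of 3 in cytosolic ribosomal protein genes and 0 of 7 in genes of vesicle traffic. Mitochondrial ribosomal proteins had 1 lower of 5 (MRPS21), solute carriers 1 lower of 8 (SLC29A2), and the respiratory chain 1 higher of 2 (ATP5D).

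Where a gene had several introns, calls mostly went one way. Of 60 genes with at least 2 tested short introns, 6 had at least 2 called (ATXN2L, COASY, DDIT3, EML3, KLK3 and MAMDC4), and 0 had calls in both directions, though several of these introns overlap. In 60 genes a short and a longer intron could both be tested. Of these, 16 had a called short intron, 10 had both called, and the direction was shared in 9 of these 10. The introns of a gene are divided by the same SE reads, so a change in those reads moves their ratios together, and the shared directions are a description only. Near the length limit, the last tested introns inside were those of ELMOD3 (494 bases, higher), TMEM205 (498 bases, -0.06), HPS4 (499 bases, higher) and C16orf62 (500 bases, lower), and the first tested introns outside were ARAF (505 bases, 0.38, not called), FBXL6 (506 bases, higher by 0.66), INVS (510 bases, 0.03) and PRPF4B (512 bases, lower by 0.62).

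For the transcripts of the machinery that recognises introns, the share of rises and falls depended on the scaling. Of 22 genes of U1 and branch point recognition, 4 rose and 10 fell in FPKM, but 15 rose and 3 fell after scaling. Over all 12148 genes 13.4% rose and 60.3% fell in FPKM, and 32.4% and 35.5% did after scaling; the median log2 change of the list was -0.08 (0.14 scaled), against -0.22 (-0.01 scaled) over all genes. U2AF1L4, a relative of the small U2AF subunit, had 3.91 ± 0.28 FPKM in KDM4B-labelled libraries and 9.06 ± 1.11 FPKM in vector libraries, and its fall held after scaling (log2 change -1.03, and -0.84 scaled). U2AF1, which reads the end of the intron, had 79.7 ± 0.62 FPKM in KDM4B-labelled libraries and 103 ± 7.44 FPKM in vector libraries (log2 change -0.36, and -0.14 scaled). SNRPC, a U1 protein, had 57.7 FPKM in KDM4B-labelled libraries and 71.2 FPKM in vector libraries, but its scaled change of -0.07 did not pass (adjusted p = 0.105). Among the rises, and chosen after their values were seen, were U2AF2, the other U2AF subunit, and SNRNP70, another U1 protein. U2AF2 had 115.8 FPKM in KDM4B-labelled libraries and 97.5 FPKM in vector libraries (log2 change 0.25, and 0.47 scaled). For SNRNP70 the means were 76.3 FPKM in KDM4B-labelled libraries and 58.3 FPKM in vector libraries (log2 change 0.38, and 0.60 scaled).

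Of 9 genes of the minor spliceosome, which removes a rare class of introns, 2 rose and 7 fell, and 2 rose and 5 fell after scaling, with a median of -0.37 (-0.17 scaled); 60.3% of all genes fell (35.5% scaled). SNRNP48 was lowest in p, with 12.8 ± 0.50 FPKM in KDM4B-labelled libraries and 21.4 ± 0.71 FPKM in vector libraries (log2 change -0.70, and -0.48 scaled). Of 16 genes of splicing kinases, methylation and lariat release, 3 rose and 9 fell (7 and 3 scaled), with a median of -0.15 (0.07 scaled), beside 13.4% and 60.3% of all genes (32.4% and 35.5% scaled). The kinase CLK1, which phosphorylates SR proteins, had 22.1 FPKM in KDM4B-labelled libraries and 30.6 FPKM in vector libraries (log2 change -0.45, and -0.23 scaled). WDR77 of the same list went the other way, with 38.4 FPKM in KDM4B-labelled libraries and 32.2 FPKM in vector libraries (log2 change 0.25, and 0.47 scaled). Of 17 tested genes of nuclear RNA surveillance and export, 1 rose and 9 fell (8 and 2 scaled), with a median of -0.13 (0.09 scaled), beside the same shares of all genes. The exosome subunit EXOSC5 had 13.6 FPKM in KDM4B-labelled libraries and 23.4 FPKM in vector libraries (log2 change -0.75, and -0.53 scaled), and the export adaptor ALYREF had 79.2 FPKM in KDM4B-labelled libraries and 67.3 FPKM in vector libraries (log2 change 0.23, and 0.46 scaled). These are levels of transcripts, and their part in the events above was not tested.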

How the data were processed

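The authors deposited whole-number read counts per splicing event and library and FPKM values per gene, per the file headers. HISAT, StringTie and Cufflinks are named in the submitters' processing notes; the event caller, its annotation and whether it used strand were not given in the sources used here. Reads of overlapping and antisense genes cannot be told apart. The members, gene lists and tests were chosen with earlier results of these data known, and the functional lists of host genes are built from symbols.

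Event counts and the summed SE counts of the same gene were fitted together in edgeR 4.0.16 (R 4.3.3) by quasi-likelihood, the terms being library, kind of count, and its product with group, for events whose event and SE reads were both at least 10 in every library; p-values were adjusted (Benjamini-Hochberg) over all 750 retained-intron events. Event counts alone were tested in edgeR with TMM scaling (819 events, 396 of them short introns, of which 63 were higher and 57 lower). Genes with a mean of at least 1 FPKM were tested with limma 3.58.1 on log2(FPKM + 1), which understates changes of low genes. All tests are two-sided. SE events that share exons share reads, and so do nested introns.

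Named introns were the 12 largest called rises and falls that had 20 or more reads in every library and ratios without overlap, 1 per gene (10 falls qualified), the 5 most-read introns, up to 4 called introns in each of the splicing and androgen lists, and up to 4 genes per pathway list by lowest p; the text gives the leading ones of these. Genes outside this are named as chosen after their values were seen, or as members of a count or at the length limit. On simulated data with 200 changed events among 750, the event test recovered 33.0% of log2 changes of 0.5 and 90.0% of changes of 1. These counts were drawn independently, with an assumed dispersion of 0.01, so shared reads were not modelled. They used the mean counts of all 750 events, and recovery was not computed for the short introns alone, which had fewer reads. Chi-square values per degree of freedom were 2.79 to 3.68 within groups and 36.3 to 44.1 between groups, so no library was a copy of another. Alternatives were other gene references, filters, DESeq2 1.42.0, scalings, pseudocounts, leaving out libraries in turn and a replicate block. The tests see only counting error and the spread of these 6 libraries.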

Additional observations from a re-analysis of the deposited data

How the results depend on the processing

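The number of short introns higher against their gene was 31. It was 18 with SE events outside the intron and its flanks, where 310 introns, 20 of the 31 among them, could be tested. With the gene's most-read SE event it was 18, with the host gene's FPKM 28 and with DESeq2 21. Leaving each library out in turn gave 22 to 30. The number lower was 13, and it was 8 with the most-read SE event, 7 with at least 50 event reads in each library (242 introns tested), 8 with DESeq2, 20 with the host gene's FPKM (an alternative chosen after seeing the data, with 396 introns tested) and 8 to 13 with each library left out, the lowest without KDM4B replicate 2. Of the 31 higher introns 20 passed with each of the 6 libraries left out, and of the 13 lower introns 6. The direction turned for SYTL1 (-0.17), USP21 (-0.039) and LTN1 (0.027) with the most-read SE event, and for EML3 (0.015) and RPL28 (-0.0012) with the host gene's FPKM; the cause was not tested. Of the 310 tested host genes, 33 were higher and 210 lower in FPKM, and 92 were higher and 123 lower after scaling. With each library left out, 29 to 33 host genes were higher and 187 to 218 lower, and for event counts alone 50 to 63 introns were higher and 46 to 53 lower. Depth limits the introns with few reads: 30 had under 10 reads in a library.

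The libraries share only replicate numbers. The deviations of same-numbered libraries correlated at -0.01 for number 1 and 0.10 for number 2, and numbers 3 and 4 have no partner. With the replicate block, 0 short introns were higher and 0 lower by edgeR (62 at an unadjusted p below 0.05, against 75 without the block; DESeq2 without the block called 29, with 57 unadjusted), a fit that leaves 1 residual degree of freedom. Under the block 63 event counts were higher and 54 lower, and 31 host genes were higher and 195 lower.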
